A study of Mus musculus with 6 samples.

Results

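The genes of glucose uptake, glycolysis, lactate export and the response to low oxygen were described in lenses of mouse embryos at E15.5. They numbered 37 of the 41128 features listed for each library, and were chosen by name for these functions. The list was proposed with the comparison below already known, so every level, fold change and adjusted p given here describes that comparison and lends no independent support to a statement about the list. The conditional knockout (cKO) lenses were homozygous for a floxed allele of Itgb1, the gene of the matrix receptor subunit β1-integrin, and carried the MLR10 Cre transgene, whose Cre is made in lens cells. They were on a mixed strain background. The wild-type (WT) lenses were C57Bl/6 with neither the floxed allele nor Cre named in the labels, and their records repeat samples of an earlier series. Poly(A) RNA was sequenced from 3 biological replicates per genotype, and a replicate pooled 30 lenses for cKO and 75 for WT. Genotype, Cre, strain, pool size and series of origin differ between the groups together, so their parts in any difference cannot be told apart.

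Glycolysis splits glucose into pyruvate in the cytosol, and lactate dehydrogenase then turns pyruvate into lactate, which transporters carry out of the cell. The adult lens, which is not the stage studied here, has no blood supply of its own and holds low oxygen. Glycolysis is known as its main source of ATP. Hypoxia-inducible factors (HIFs) are dimers whose α subunits are marked for destruction by prolyl hydroxylases when oxygen is present. When oxygen is low they bind DNA at sites with the core letters ACGTG or GCGTG and raise transcription of many glycolytic genes.

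Depth ran from 10023049 to 11531139 counted reads per WT library and from 20036554 to 28095318 per cKO library. Itgb1 fell from 425 ± 22.97 CPM (reads scaled to a common library total) in WT to 258 ± 19.8 CPM in cKO (SD, n = 3 each). The lens label fitted its markers, since crystallin genes made up 31.6% to 34.8% of WT reads and 29.8% to 35.0% of cKO reads. All 12 lens fiber markers passed the filter on low values, with 5 of them lower in cKO, 1 of which, the beaded filament gene Bfsp2, was nearly absent there (653 CPM in WT and 15.3 CPM in cKO). Of 8 lens epithelium markers 4 were lower and 1 higher (2812 to 3151 CPM in cKO and 2738 to 3068 CPM in WT). Other cell types were also detected, and some of their markers moved with the groups. Of 15 endothelial markers 12 were higher in cKO and 0 lower, with a summed level of 285 to 343 CPM in cKO and 173 to 213 CPM in WT. Of 12 macrophage markers 8 were higher and 0 lower (26.4 to 36.1 against 11.01 to 13.2 CPM), and of 8 pericyte markers 6 were higher and 1 lower (170.3 to 203 against 119 to 148 CPM). Of 10 erythroid markers 2 were higher and 1 lower (153 to 217 against 108 to 133 CPM). Of 10 periocular mesenchyme markers 5 were tested, of which 3 were higher (Foxc1, Prrx1 and Col1a2) and 1 lower (Pdgfra, which is also a lens epithelium marker), with a sum of 194 to 225 against 207 to 251 CPM. Their part in the results on the members was not tested, and in pooled tissue fewer cells of a type and less RNA per cell cannot be told apart.

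Promoter windows from RefSeq (build GRCm38.p6) were found for 34 of the 37 members. The windows shown are the 250 bases before the transcription start nearest to the gene's annotated 5′ end, written 5′ to 3′ on the gene's strand, with each ACGTG or GCGTG, read on either strand, in capitals. They are shown because these letters are the core of the HIF site, and because they belong to the glucose transporter (Slc2a1, chr4:119108495-119108744, plus strand), a triose-step enzyme without a match (Tpi1, chr6:124814159-124814408, minus strand), phosphoglycerate kinase (Pgk1, chrX:106186850-106187099, plus strand), lactate dehydrogenase (Ldha, chr7:46845554-46845803, plus strand), the lactate exporter (Slc16a3, chr11:120948817-120949066, plus strand) and the collagen prolyl hydroxylase gene P4ha1 (chr10:59323046-59323295, plus strand), which went the other way.
Slc2a1: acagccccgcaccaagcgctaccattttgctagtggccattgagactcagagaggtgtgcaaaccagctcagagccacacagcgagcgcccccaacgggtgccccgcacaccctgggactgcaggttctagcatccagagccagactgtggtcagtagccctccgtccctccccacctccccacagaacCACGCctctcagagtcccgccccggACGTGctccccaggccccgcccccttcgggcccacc
Tpi1: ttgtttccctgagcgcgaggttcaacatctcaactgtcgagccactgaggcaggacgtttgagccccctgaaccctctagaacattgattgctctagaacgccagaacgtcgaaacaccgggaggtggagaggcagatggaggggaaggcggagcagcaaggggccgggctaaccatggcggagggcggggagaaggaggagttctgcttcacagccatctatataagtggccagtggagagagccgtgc
Pgk1: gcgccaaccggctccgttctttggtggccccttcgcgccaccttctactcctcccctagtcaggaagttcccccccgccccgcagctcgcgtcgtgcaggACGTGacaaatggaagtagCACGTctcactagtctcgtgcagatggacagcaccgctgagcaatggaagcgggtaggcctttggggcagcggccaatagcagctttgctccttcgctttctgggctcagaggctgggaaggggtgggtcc
Ldha: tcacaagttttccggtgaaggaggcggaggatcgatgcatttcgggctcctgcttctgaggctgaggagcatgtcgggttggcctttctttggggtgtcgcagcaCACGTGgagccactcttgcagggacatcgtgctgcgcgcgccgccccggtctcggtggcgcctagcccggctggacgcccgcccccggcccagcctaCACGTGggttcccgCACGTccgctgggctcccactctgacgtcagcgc
Slc16a3: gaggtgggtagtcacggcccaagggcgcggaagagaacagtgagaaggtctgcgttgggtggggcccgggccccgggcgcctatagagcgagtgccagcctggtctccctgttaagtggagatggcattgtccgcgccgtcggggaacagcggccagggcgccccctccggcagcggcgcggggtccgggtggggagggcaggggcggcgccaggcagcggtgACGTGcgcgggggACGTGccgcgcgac
P4ha1: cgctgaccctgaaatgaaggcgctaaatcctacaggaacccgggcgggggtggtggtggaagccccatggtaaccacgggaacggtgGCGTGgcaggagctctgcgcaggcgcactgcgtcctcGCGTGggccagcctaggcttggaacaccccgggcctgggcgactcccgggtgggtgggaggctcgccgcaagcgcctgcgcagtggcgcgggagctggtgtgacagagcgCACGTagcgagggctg
The Ldha window held 5 matches, counting the palindrome CACGTG once on each strand, P4ha1 held 3, and Slc2a1, Pgk1 and Slc16a3 held 2 each. In Ldha the matches began 145, 144, 48, 47 and 34 bases before the start. Over these nearest windows 27 of the 34 members held a match. By the call in cKO lenses, a match was found in 12 of the 17 members that were lower and had a window, in 1 of the 2 that were higher and in 12 of the 13 that did not pass the test. The median GC content of these windows was 57.2%, 62% and 67.6%. In 300-base windows reaching 50 bases past the start, and taking every annotated start of a gene, 31 of 34 members (91.2%) held a match, against 69.2% of the 9025 genes with a window among those tested and 46.7% of all 27025 genes with a window. Counted by window, 41 of the members' 50 windows (82%) held a match, against 43.8% of all 32851 windows. A match is a run of letters and was not tested as a binding site.

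Most genes on the path from glucose to lactate were lower in cKO lenses. Of the 37 members 35 passed the filter on low values (at least 1 CPM in at least 3 libraries), and of these 18 were lower and 3 higher in cKO at an adjusted p under 0.05 by limma, with Benjamini-Hochberg adjustment over all 11941 genes tested. Over all genes 15.9% were lower and 20.9% were higher, together 36.9%. The members' median log2 fold change was -0.25, against 0.03 for all genes tested. All fold changes are on the log2(CPM + 1) scale, cKO minus WT, which understates the change of low genes. The groups did not overlap for 23 of the 35 members, 20 of them with cKO below WT, against 48.1% and 21.2% of all genes tested. Among the 26 tested members from glucose transport to pyruvate dehydrogenase kinase, 16 were lower and 1 higher, with a median of -0.39. Among the 9 tested HIF subunits, hydroxylases and hypoxia-inducible members, 2 were lower and 2 higher, shares near those of all genes. P4ha1 lost its call, leaving 1 higher, with TMM scaling and when cKO replicate 2 or 3 or WT replicate 2 or 3 was dropped, and their median of 0.10 was -0.03 after adjustment for GC content and length. In the 24 tested members that share under 10% of their 32-base words with transcripts of other genes, 11 were lower and 3 higher.

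**Figure D1:**
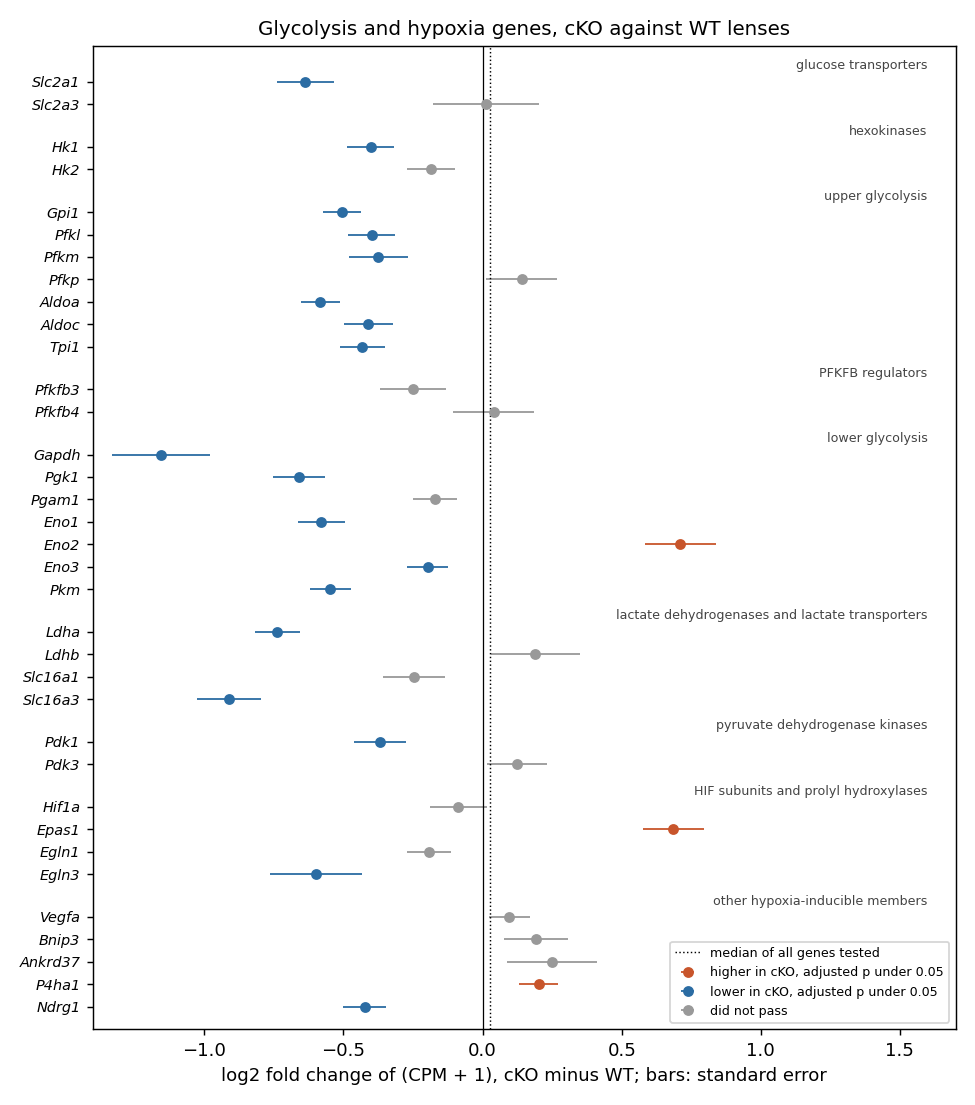
Log2 fold change of CPM + 1 (horizontal axis, cKO minus WT, bars: standard error) for the 35 tested members, grouped by role. Blue points (18) were lower and orange points (3) higher in cKO at an adjusted p under 0.05, grey points did not pass, and the dotted line is the median of all genes tested (0.03).

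Of the 2 glucose transporter genes among the members, 1 made up nearly all of the transcripts and was lower in cKO. Slc2a1 (GRCm38 chromosome 4, 119108711 to 119137983, plus strand), which encodes the transporter GLUT1, stood at 435, 470 and 528 CPM in WT replicates 1, 2 and 3 and at 258, 335 and 332 CPM in cKO. Every cKO library lay below every WT library, with cKO replicate 1 the lowest. A log2 fold change of -0.64 (SE 0.10) had an adjusted p of 0.000542 by limma. Slc2a3, the gene of the neuronal transporter GLUT3, had 8 to 46 reads per library and 1.46 ± 0.653 CPM in WT against 1.42 ± 0.186 CPM in cKO. At that depth no difference was detectable (log2 fold change 0.01, 95% interval -0.40 to 0.42).

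Hexokinases trap glucose in the cell as glucose 6-phosphate. Hk1, the widely expressed form, averaged 44.8 ± 1.998 CPM in WT and fell by 0.40 on the log2 scale to 33.7 ± 2.72 CPM in cKO (limma adjusted p = 0.00258). Hk2, the insulin- and hypoxia-responsive form, was read at 113, 115 and 137 CPM in WT and 98.5, 110.4 and 111 CPM in cKO. Its groups did not overlap but lay close together, and its log2 fold change of -0.18 did not pass the test (adjusted p = 0.115). With TMM or RLE scaling it did pass (-0.21, adjusted p = 0.0353 and 0.0355).

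Along upper glycolysis 6 of the 7 members fell. Gpi1, the isomerase that makes fructose 6-phosphate, stood at 218, 227 and 219 CPM in WT and 148, 159 and 159.5 CPM in cKO, with a log2 fold change of -0.505 (limma adjusted p = 0.000121). Its replicates were tightly grouped and far apart between the genotypes. Phosphofructokinase commits sugar to glycolysis, and its liver-type subunit gene Pfkl fell from 289 ± 21.4 to 219.6 ± 21.4 CPM (-0.40). The muscle-type gene Pfkm fell from 16.7 ± 0.932 to 12.7 ± 1.55 CPM (-0.37, adjusted p = 0.0144 by limma). That call was lost without cKO replicate 3 (-0.30, adjusted p = 0.0847), without WT replicate 2 (-0.34, adjusted p = 0.0617) and with reads thinned to the smallest library (-0.31, adjusted p = 0.0581). Pfkp, the platelet-type subunit gene, was at 6.23 ± 0.986 CPM in WT and 6.94 ± 0.461 CPM in cKO, with overlapping groups (0.14, adjusted p = 0.415).

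Aldolase cleaves fructose 1,6-bisphosphate into the 2 triose phosphates. Aldoa (chromosome 7, 126795234 to 126800751, minus strand), the main form, was at 626, 609 and 567 CPM in WT and 391, 397 and 413 CPM in cKO. The highest cKO library was well below the lowest WT library, and Aldoa fell by 0.58 on the log2 scale (SE 0.07, limma adjusted p = 3.97e-05). Aldoc, the brain-type form, fell from 67.1 ± 3.77 to 50.3 ± 5.19 CPM (-0.41). Tpi1, whose enzyme interconverts the trioses, fell from 262 ± 8.30 to 195 ± 19.1 CPM (-0.43).

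The PFKFB enzymes set the level of fructose 2,6-bisphosphate, the strongest activator of phosphofructokinase. Of the 3 genes 2 were tested, and 0 passed the test by limma, edgeR or DESeq2, with 0 at an unadjusted p under 0.05. Pfkfb3, the hypoxia-inducible form, was at 33.2 ± 3.07 CPM in WT and 27.98 ± 5.04 CPM in cKO, with overlapping groups (-0.25, adjusted p = 0.115), and it passed without cKO replicate 3 (-0.38, adjusted p = 0.0314). Pfkfb4 was at 2.89 ± 0.175 and 3.03 ± 0.574 CPM (0.04, adjusted p = 0.854). Pfkfb2, the heart-type form, was listed at 0 in all 6 libraries, and its annotated span overlaps Yod1 on the other strand and the readthrough model Gm29427.

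Lower glycolysis held the enzyme gene with the largest fall and the 1 enzyme gene that rose. Pkm (chromosome 9, 59656368 to 59679375, plus strand), the pyruvate kinase gene and the most abundant member, was at 1537, 1516 and 1647 CPM in WT and 991, 1128 and 1100.4 CPM in cKO. The groups were separated by more than their own spread, with a log2 fold change of -0.55 (SE 0.07, adjusted p = 0.000132 by limma). Pgk1, the first ATP-making step, fell from 29.2 ± 3.10 to 18.1 ± 0.493 CPM (-0.66). Pgam1, a mutase, did not pass the test (179.7 ± 12.01 against 159 ± 10.5 CPM, adjusted p = 0.105), and passed without WT replicate 3 (-0.23, adjusted p = 0.0436).

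Gapdh (chromosome 6, 125161715 to 125166467, minus strand) encodes the glyceraldehyde phosphate dehydrogenase often used as a reference gene. It had the largest fall of all members, from 29.7, 32.9 and 32.2 CPM in WT to 18.6, 13.9 and 9.72 CPM in cKO (log2 fold change -1.16, SE 0.18, adjusted p = 0.000733 by limma). The cKO libraries were widely spread, while the WT libraries were close together. The level itself was low for this gene, at 273 to 375 reads per library, and per kilobase it ranked 20 among the members in WT. Of its 32-base words 27.9% occur in transcripts of other genes. A copy here is another annotated gene whose transcripts hold at least 10% of a member's words. Gapdh had 45 copies, of which 40 are listed features, 2 with any read, summing to 0.490 CPM in WT and 0.216 CPM in cKO. The treatment of reads with several equal matches, which the sources used here do not give, was not tested as a part of this level. Other members shared more of their words, namely Bnip3 (56.5%), Pgk1 (54.7%), Pgam1 (37.1%), Pkm (34.0%), Ldhb (32.2%) and Eno1 (28.4%).

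The 3 enolase genes went in different directions. Eno1 (chromosome 4, 150236721 to 150248879, plus strand), the widely expressed form, was at 296, 290 and 265 CPM in WT and 168, 196 and 206 CPM in cKO, and fell by 0.58 on the log2 scale (adjusted p = 0.000222 by limma). Its retrotransposed copy Eno1b was at 21.8, 8.95 and 0.0712 CPM in cKO replicates 1, 2 and 3 and at 0 to 0.0998 CPM in WT. With the reads of its copies added, Eno1 was still lower (-0.50, adjusted p = 0.000212). Eno2, the neuron-type form, rose from 5.12, 6.22 and 6.09 CPM in WT to 9.63, 9.10 and 11.8 CPM in cKO (0.71, adjusted p = 0.000877). All cKO libraries lay above all WT libraries at 59 to 331 reads. Of 10 neural retina markers 1 passed the filter and did not pass the test, with Neurod1 at 0 in all libraries. Of the same list Elavl3 (0.699, 1.39 and 0.890 CPM in cKO against 0.434, 0.263 and 0.399 in WT), Stmn2 (0.599, 1.48 and 0.819 against 0.260, 0.526 and 0.299) and Atoh7 (0.1497, 0.297 and 0.392 against 0.0867, 0.0877 and 0) were low and lay, as Eno2 did, with every cKO library above every WT library. The part of neural cells in the level of Eno2 was not tested, and the markers' summed level was 3.49 to 10.98 CPM in cKO and 1.197 to 9.47 CPM in WT. Eno3, the muscle-type form, was at 97.8, 96.9 and 90.8 CPM in WT and 84.3, 78.9 and 85.5 CPM in cKO. Its call sat at the threshold (-0.20, adjusted p = 0.0499 by limma) and was lost without cKO replicate 1, 2 or 3 (adjusted p = 0.0623, 0.144 and 0.1002) or WT replicate 1 or 2 (0.111 and 0.152). Of 10 skeletal muscle markers 7 were under 1 CPM in every library, among them the creatine kinase gene Ckm, Myog and Acta1, 0 passed the test, and their sum was 28.1 to 42.7 CPM in cKO and 42.1 to 54.97 CPM in WT.

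**Figure D2:**
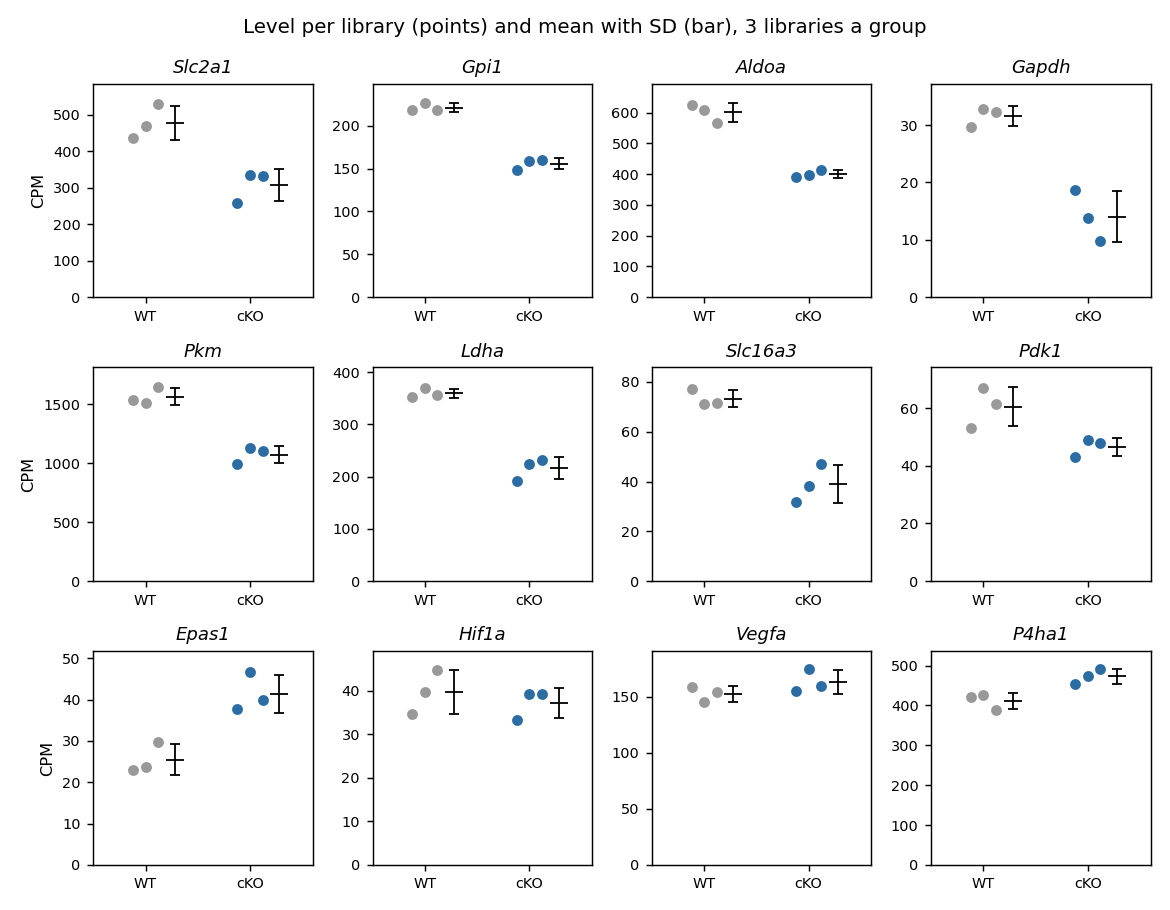
CPM per library (points, vertical axes from 0) with the group mean and SD (bars) for 12 members in WT and cKO lenses, 3 libraries each. From Slc2a1 to Pdk1 every cKO library is below every WT library, Epas1 and P4ha1 show the opposite, and Hif1a and Vegfa overlap.

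The main genes of lactate production and export were both lower in cKO. Ldha (chromosome 7, 46841475 to 46855627, plus strand), the lactate dehydrogenase subunit favouring lactate formation, was at 353, 370 and 356 CPM in WT and 192, 224 and 232 CPM in cKO. Its groups were far apart (log2 fold change -0.74, SE 0.08), and its adjusted p of 1.82e-05 by limma was the smallest of all members. Ldhb, the heart-type subunit gene, was low and overlapping, at 3.83 ± 0.933 CPM in WT and 4.48 ± 0.741 CPM in cKO (0.19, adjusted p = 0.376). Slc16a3 (chromosome 11, 120948480 to 120960868, plus strand) encodes MCT4, the lactate exporter of glycolytic cells. It was at 77.2, 71.3 and 71.5 CPM in WT and 31.7, 38.1 and 47.2 CPM in cKO, and fell by 0.91 on the log2 scale (SE 0.12, adjusted p = 8.95e-05), the most among members that share under 10% of their 32-base words with other genes. Slc16a1, the gene of the bidirectional transporter MCT1, did not pass (19.5 ± 2.40 against 16.2 ± 1.68 CPM; -0.25, adjusted p = 0.0969). It did pass without cKO replicate 2 (-0.33, adjusted p = 0.049), without WT replicate 3 (-0.34, adjusted p = 0.031), with edgeR (-0.30, adjusted p = 0.0411) and after adjustment for GC content and length (-0.42, adjusted p = 0.00454).

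Pyruvate dehydrogenase kinases keep pyruvate out of the mitochondria by inactivating pyruvate dehydrogenase. Pdk1, the HIF-responsive form, was at 53.3, 67.1 and 61.4 CPM in WT and 43.1, 48.9 and 47.8 CPM in cKO (-0.37, adjusted p = 0.00784 by limma), a call lost without WT replicate 2 (-0.29, adjusted p = 0.0519). Pdk3 was at 13.1 ± 1.86 CPM in WT and 14.3 ± 0.235 CPM in cKO (0.12, adjusted p = 0.399). Its groups overlapped.

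The 18 enzymes from hexokinase to lactate dehydrogenase summed to 4148, 4182 and 4225 CPM in WT and 2753, 3048 and 3046 CPM in cKO, so that the cKO mean was 70.5% of the WT mean. With TMM scaling it was 69.0%, and with crystallin reads left out of the total 69.2%. Within cKO, replicate 1 was the lowest of the 3 libraries for 23 of the 35 tested members (65.7%), against 57.2% of all genes tested.

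Levels of different genes were compared per kilobase, as RPKM (CPM divided by the gene length the authors used). In WT, Pkm led at 603 ± 27.04 RPKM, followed by Aldoa at 218 ± 10.96, Slc2a1 at 167 ± 16.5, Ldha at 121 ± 3.03 and Tpi1 at 119 ± 3.76 RPKM. Ldha and Tpi1 did not differ beyond their spread, nor did P4ha1 (99.998 ± 5.03) and Pgam1 (98.1 ± 6.56). In cKO the leading 2 were again Pkm (413 ± 27.9) and Aldoa (145 ± 4.18), while P4ha1 (115 ± 4.39) stood above Ldha (72.4 ± 7.21). Pkm was above 99.6% and Hk1 above 50.9% of all tested genes in WT.

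Most isoenzyme families were carried by the same main form in both groups. Hk2 made up 79.4% ± 1.09 of hexokinase RPKM in WT and 81.9% ± 0.468 in cKO, Pfkl 91.2% ± 0.832 and 90.8% ± 1.17 of phosphofructokinase, and Aldoa 91.4% ± 0.649 and 90.4% ± 0.699 of aldolase. Ldha made up 98.02% ± 0.418 of lactate dehydrogenase in WT and 96.2% ± 0.452 in cKO. The groups did not overlap for Hk2 and Ldha and overlapped for Pfkl and Aldoa. The Slc16a3 share of the 2 lactate transporter genes was 75.85% ± 2.40 in WT and 66.3% ± 5.02 in cKO, and the Pdk1 share of the 2 kinase genes was 60.3% ± 4.28 and 51.7% ± 1.55, each without overlap. Eno1 made up 48.5% ± 0.512 of enolase in WT and 41.4% ± 2.88 in cKO, with Eno3 at 50.4% ± 0.379 and 56.04% ± 2.87. That order rests on the lengths used, 5.38 kilobases for Eno1 and 1.74 for Eno3, because in CPM Eno1 made up 73.7% and 67.02%. These shares are descriptions, with no test.

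**Figure D3:**
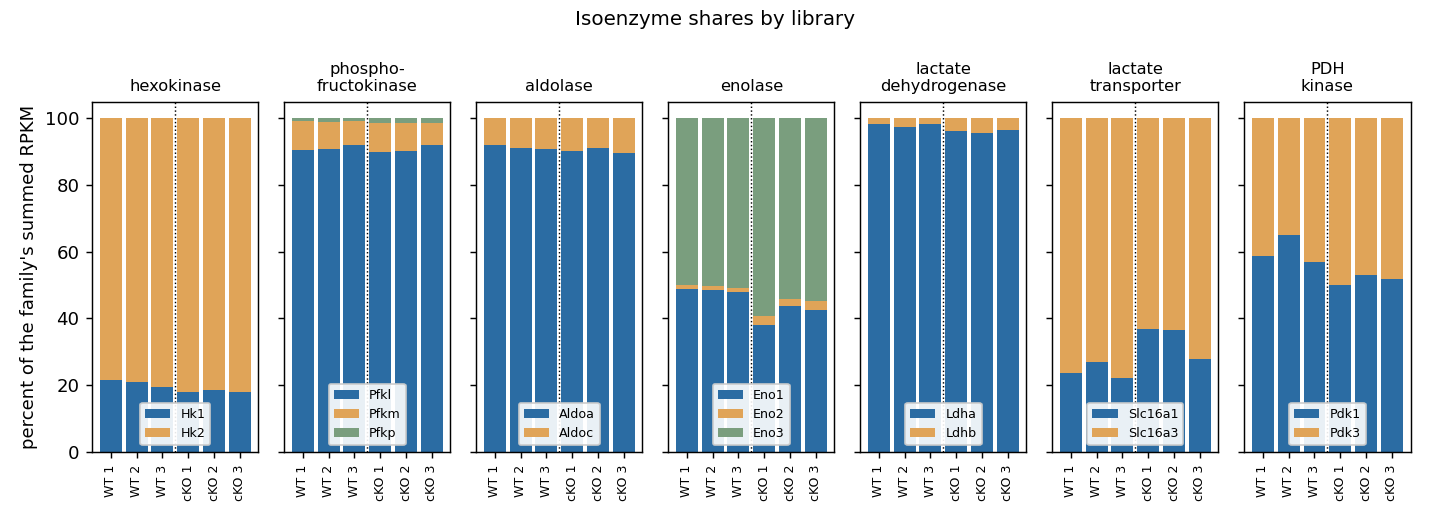
Share of each isoenzyme gene in its family's summed RPKM (vertical axis, percent) in each of the 3 WT and 3 cKO libraries. The main form is the same in both groups for hexokinase, phosphofructokinase, aldolase, lactate dehydrogenase and the lactate transporters, while the Eno1 share is lower in cKO (41.4%) than in WT (48.5%).

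Among the HIF α subunits, transcripts of Epas1 were higher and those of Hif1a did not pass the test. Hif1a, regulated mainly through protein stability, was at 34.7, 39.8 and 44.9 CPM in WT and 33.3, 39.3 and 39.3 CPM in cKO, with overlapping groups. Its log2 fold change was -0.09 (95% interval -0.31 to 0.13, adjusted p = 0.535 by limma), and after adjustment for GC content and length it was called at -0.30 (adjusted p = 0.00826). Epas1 (chromosome 17, 86753700 to 86833410, plus strand) encodes HIF-2α, which is known to be prominent in endothelium. It rose from 22.9, 23.8 and 29.7 CPM in WT to 37.7, 46.6 and 40.01 CPM in cKO (0.69, SE 0.11, adjusted p = 0.000417). All cKO libraries were above all WT libraries. In the same libraries 12 of 15 endothelial markers were higher, with the VE-cadherin gene Cdh5 at 41.7 CPM in cKO and 26.7 CPM in WT and Tek at 37.5 and 17.8 CPM, and their part in the level of Epas1 was not tested.

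Egln1 and Egln3 encode prolyl hydroxylases that mark HIF-α, and both genes are known HIF targets. Egln3 (PHD3) fell from 2.08, 3.16 and 3.69 CPM in WT to 1.497, 1.58 and 1.67 CPM in cKO (-0.60, adjusted p = 0.0122 by limma), a value that rests on 24 to 47 reads per library. Egln1 (PHD2), the main form, was at 75.8, 69.2 and 68.5 CPM in WT and 58.1, 64.7 and 63.5 CPM in cKO. It did not overlap but did not pass (-0.19, adjusted p = 0.0701), whereas it passed with TMM scaling (-0.22, adjusted p = 0.0231) and with edgeR (-0.23, adjusted p = 0.0202).

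Of the 6 other hypoxia-inducible members 1 was higher, 1 was lower, 3 did not pass the test and 1 was not tested. Vegfa, the angiogenic growth factor, was at 159, 145 and 154 CPM in WT and 155, 175 and 159.6 CPM in cKO, with overlapping groups (0.10, 95% interval -0.06 to 0.26, adjusted p = 0.335 by limma). The mitophagy gene Bnip3 (39.6 ± 6.14 against 45.3 ± 5.28 CPM, 0.19, adjusted p = 0.212) and Ankrd37 (1.95 ± 0.571 against 2.45 ± 0.0687 CPM, 0.25, adjusted p = 0.249) did not pass either. P4ha1 (chromosome 10, 59323296 to 59373304, plus strand), a collagen prolyl hydroxylase subunit, was at 421, 426 and 388 CPM in WT and 455, 473 and 491 CPM in cKO. It was called higher (0.20, adjusted p = 0.0369), but not with TMM scaling (0.17, adjusted p = 0.0686), with edgeR (0.17, adjusted p = 0.0725), or without cKO replicate 2 or 3 (adjusted p = 0.0783 and 0.161) or WT replicate 2 or 3 (0.0708 and 0.123). Ndrg1, a stress-responsive gene, fell from 108 ± 5.33 to 79.98 ± 4.98 CPM (-0.42, adjusted p = 0.00102). Adm, which encodes the vasodilator adrenomedullin, had 0 or 1 read in each library and was not tested.

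The rest of the pathway, from lists that leave out the members, did not share a single direction. Of 25 other glycolytic isoenzymes and sugar transporters, 15 were under 1 CPM in every library, and of the 9 tested 2 were higher and 3 lower, with a median of 0.10 that turned to -0.18 at a minimum mean of 5 CPM and to -0.01 with no filter. Bpgm, the enzyme of the 2,3-bisphosphoglycerate shunt, rose from 74.2 ± 5.40 to 94.9 ± 5.30 CPM, and the transporter gene Slc2a12 from 2.46 ± 0.117 to 4.39 ± 0.951 CPM. Pgm2 fell from 130.6 ± 3.05 to 100.1 ± 5.95 CPM, Slc2a8 from 16.2 ± 1.02 to 12.96 ± 0.793 and Adpgk from 28.99 ± 1.49 to 24.6 ± 0.551 CPM. Slc2a8 no longer passed when cKO replicate 1 or 3 or WT replicate 1 or 3 was dropped (adjusted p = 0.0527 to 0.0993), and the Adpgk call without any 1 of the 6 libraries (0.0603 to 0.151), which left 1 lower without those 4 libraries in turn. Of 13 other genes of the HIF machinery, all tested, 1 was higher (the elongin C gene Tceb1, 58.3 ± 2.14 to 77.3 ± 5.34 CPM) and 1 lower (Egln2, 43.9 ± 3.28 to 36.5 ± 3.42 CPM). The Egln2 call was lost, leaving 0 lower, when any library other than cKO replicate 2 was left out (adjusted p = 0.0506 to 0.13), and the Tceb1 call after adjustment for GC content and length (0.10, adjusted p = 0.263).

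Of 32 other hypoxia-inducible genes 28 were tested, with 12 higher and 5 lower and a median of 0.13. After adjustment for GC content and length 8 were higher and 6 lower, and the median turned to -0.02. Igfbp3, which encodes a binding protein of insulin-like growth factors, was at 9.71, 11.8 and 10.6 CPM in WT and 21.4, 23.7 and 24.6 CPM in cKO (log2 fold change 1.05, adjusted p = 7.14e-06 by limma). Its groups were far apart. Wsb1 (64.9 ± 8.20 to 90.2 ± 7.62 CPM), the clock-linked repressor gene Bhlhe41 (20.5 ± 1.47 to 26.8 ± 0.822 CPM) and the mitochondrial gene Higd1a (43.5 ± 4.40 to 55.6 ± 2.01 CPM) rose. P4ha2, the sister of P4ha1, fell from 19.5 ± 1.13 to 12.7 ± 2.64 CPM, and Zfp395 (-0.39), the glycogen synthase gene Gys1 (-0.39) and the histone demethylase gene Kdm4b (-0.32) fell too. The Gys1 call was lost without cKO replicate 1 (-0.24, adjusted p = 0.061) or WT replicate 2 (-0.38, adjusted p = 0.0623), and the Kdm4b call without cKO replicate 1 (-0.24, adjusted p = 0.0767) or WT replicate 3 (-0.23, adjusted p = 0.0851). Car9, a carbonic anhydrase gene that is a standard hypoxia marker, was under 1 CPM in every library. The higher count was 5 without cKO replicate 3 and 6 with DESeq2, and the lower count was 2 without cKO replicate 1 and 3 without WT replicate 2.

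Pyruvate entry into mitochondria had 3 of 10 tested genes higher and 1 lower, with a median of 0.11 that turned to -0.04 after adjustment for GC content and length. Dld, a subunit gene of pyruvate dehydrogenase, was at 72.8, 73.02 and 67.05 CPM in WT and 97.5, 98.3 and 98.2 CPM in cKO (0.46, adjusted p = 0.000361 by limma), and the pyruvate carrier gene Mpc2 rose from 16.7 ± 1.56 to 25.5 ± 1.39 CPM. Dlat rose from 46.99 ± 1.83 to 55.4 ± 3.20 CPM, but no longer passed when cKO replicate 2 or 3 or WT replicate 1 or 2 was dropped (adjusted p = 0.0717 to 0.114). Pdk2, a further kinase gene, fell from 25.7 ± 2.33 to 19.2 ± 1.88 CPM. The pentose phosphate and polyol pathways, which branch from glucose 6-phosphate and glucose, had 7 of 10 genes lower and 1 higher, with a median of -0.32. Tkt, the transketolase gene, was at 628, 605 and 625 CPM in WT and 351, 362 and 362 CPM in cKO, and fell by 0.79 on the log2 scale (adjusted p = 1.55e-06). The groups were separated by far more than their spread. Pgls fell from 71.9 ± 1.87 to 43.6 ± 3.57 CPM, H6pd from 22.6 ± 1.55 to 16.2 ± 1.99 and the aldose reductase gene Akr1b3 from 2.10 ± 0.623 to 0.846 ± 0.182 CPM. The Akr1b3 values rest on 13 to 30 reads per library, with every cKO library under 1 CPM. Sord, the sorbitol dehydrogenase gene, rose from 14.7 ± 0.482 to 19.02 ± 1.32 CPM, a call lost without cKO replicate 3 (0.30, adjusted p = 0.068).

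**Figure D4:**
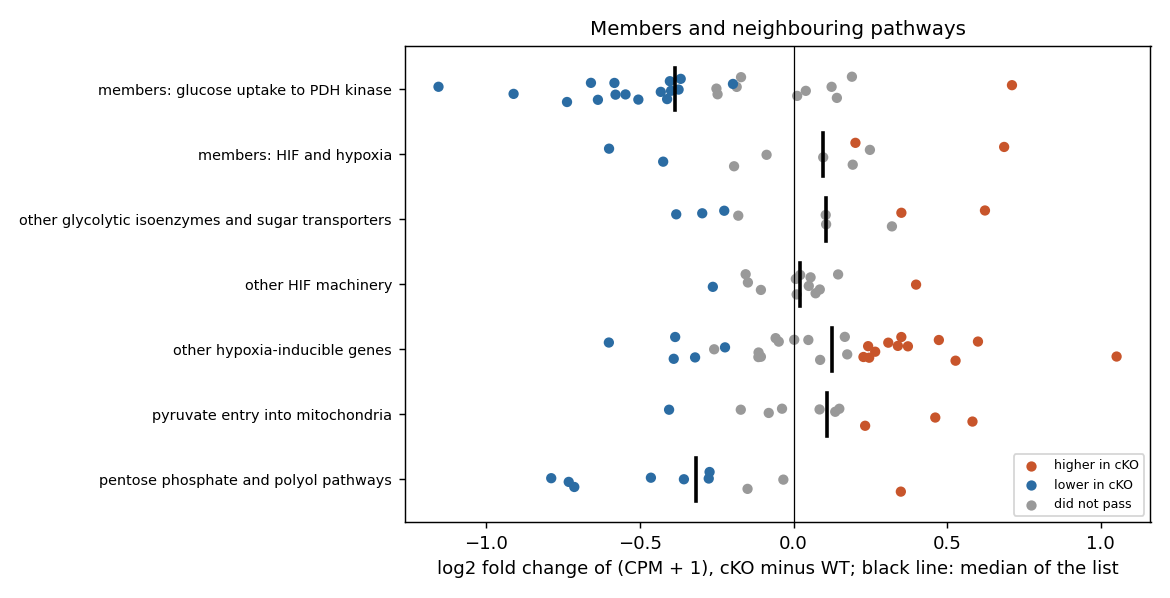
Log2 fold change of CPM + 1 (horizontal axis, cKO minus WT) of each tested gene in the members, split in 2, and in 5 neighbouring lists; points are spread vertically for visibility and black lines are medians. The medians are -0.39 for the members from glucose uptake to pyruvate dehydrogenase kinase and -0.32 for the pentose phosphate and polyol pathways, and lie between 0.02 and 0.13 for the other lists, each of whose medians turned below 0 under at least 1 other setting.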

How the data were processed

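RNA sequencing of pooled lenses was compared between 3 cKO and 3 WT libraries. Each deposited file lists CPM and RPKM for 41128 features. Per the file headers, the authors computed CPM by scaling reads to their library total, and RPKM as CPM per kilobase of gene length. GRCm38 and edgeR appear in the submitters' processing notes. Not given in the sources used here were the aligner, the counter, the gene annotation and how multiply matching reads were handled. Per the labels' protocols the library kit was TruSeq RNA v2 with 50-base single-end reads. That kit does not mark strand.

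CPM values came out as whole multiples of 1 read within 0.02 reads (rounded, 100% of values in each library), so reads were recovered by division. The design had named a test for normalized values for CPM, and limma-trend (limma 3.58.1, R 4.3.3) on log2(CPM + 1) was therefore the main test, with robust moderation, group as the only term, and a minimum of 1 CPM in 3 or more libraries. On recovered reads edgeR 4.0.16 called 2388 genes higher and 2388 lower. Coordinates, GC content and shared 32-base words came from GENCODE M21 (GRCm38). Genes named outside the members were up to 4 called genes per list and direction with the smallest adjusted p, besides Itgb1. Cell type markers named beside a result, and Car9, were picked as examples after their values were seen. The members and lists were chosen with earlier results of these data known. Replicates of a group differed by more than counting noise (chi-square per degree of freedom 4.28 to 20.09), so each counted once. The alternatives were TMM or RLE scaling, other filters, a pseudocount of 0.1, a replicate block, GC and length correction, edgeR, DESeq2 1.42.0, limma-voom, thinned reads, copies added, and leaving out each library. The main test was also tested on simulated counts.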

Additional observations from a re-analysis of the deposited data

How the results depend on the processing

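Of the 21 members called by limma, 17 kept their call and direction in all of the alternatives in which they could be tested (15 lower, 2 higher). The exceptions were Pfkm, Eno3, Pdk1 and P4ha1, and 6 members that did not pass were called under at least 1 alternative, namely Hk2, Pfkfb3, Pgam1, Slc16a1, Hif1a and Egln1. The members had 15 to 23 lower and 2 to 3 higher under the alternatives over all members, and 11 lower among those with under 10% shared words, a subset chosen after seeing the data. Leaving out 1 library gave 15 to 20 lower and 2 to 3 higher members, and 1334 to 1934 lower and 1819 to 2403 higher genes over all tested.

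The replicate numbers were not used as pairs in the main test. Correlations of deviations between same-numbered libraries were 0.327, -0.034 and 0.147, and not every library correlated best with its own number. With 3 libraries per group these values cannot settle whether the samples were paired. With the replicate block 23 members were lower and 3 higher, and 2916 genes higher and 2249 lower.

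In the neighbouring lists, other glycolytic isoenzymes and sugar transporters had 1 higher under a minimum mean of 5 CPM, and 1 to 3 lower on leaving out 1 library. Other HIF machinery had 0 lower without a filter or with thinned reads and 0 to 1 on leaving out 1 library. Other hypoxia-inducible genes had 6 higher with DESeq2, and 5 to 11 higher and 2 to 4 lower on leaving out 1 library. The pentose phosphate and polyol lists had 0 to 1 higher and 5 to 6 lower on leaving out 1 library. Why these small counts moved was not tested.

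In CPM in place of RPKM the shares in cKO and WT were 99.54% and 99.69% for Slc2a1, 75.98% and 72.99% for Hk2, 88.86% and 89.94% for Aldoa, 67.02% and 73.73% for Eno1, 97.97% and 98.95% for Ldha and 76.46% and 82.11% for Pdk1. In WT they were 92.63% for Pfkl and 79.05% for Slc16a3. These moves follow from leaving out gene length. The summed enzymes were 4226 CPM in WT with TMM scaling, and 4359 in cKO and 6295 in WT with crystallins left out of the total. At these depths genes near 1 CPM rest on about 10 to 30 reads, which limits Slc2a3, Egln3 and Ankrd37, and Akr1b3 outside the members.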
